A study of Mus musculus with 27 samples.

Results

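C2C12 cells, an immortal mouse myoblast line that fuses into contractile myotubes when serum is lowered, were compared at 30 h and at 24 h after a serum pulse. Each group was 3 libraries of total RNA, replicates 1 to 3, taken by the time and replicate number in their titles. These 6 libraries belong to a course of 27 at 9 times, collected every 6 h between 12 and 60 h. Both groups shared every treatment: growth in 10% FBS, plating at 50000 cells per well of a 6 well plate, differentiation in 2% horse serum at high density and a pulse of 50% horse serum for 2 h. No culture without the pulse was among the samples, so hours in culture and phase of the clock cannot be told apart within the pair. Of 20446 genes in the count table, 12687 held enough reads to be tested. The 3 libraries of 30 h held 20.8, 15.2 and 20.6 M counted reads and the 3 of 24 h held 24.1, 19.1 and 20.9 M. The labels do not say whether libraries of one time are separate cultures, and p-values therefore measure a spread that may be technical.

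Cultured cells carry a circadian clock, a loop in which the BMAL1 and CLOCK activators switch on period, cryptochrome and REV-ERB genes whose products then repress the loop, with the PAR bZIP factor DBP among its direct outputs. A pulse of concentrated serum sets the clocks of a dish to a common phase. It also acts on serum response factor with its actin-sensing cofactors and on YAP with its TEAD partners, which share targets among cytoskeletal and matrix genes. In muscle cells the same cytoskeletal genes mark immature or smooth muscle-like states, while the sarcomere genes mark the differentiated myotube.

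The libraries carried high levels of the myotube genes Myh3 (embryonic myosin heavy chain), Acta1, Ckm, Tnnt3, Myog and Ttn, and none of these 6 was called between the times. Of the markers of other tissues, Plin1, Cidec and Lep of adipocytes, Adgre1 and Cd3e of immune cells, Emcn of endothelium, Ibsp and Acan of bone and cartilage, and Sox10 and Snap25 of neural cells had 0 reads in all 6 libraries. The highest median among the other immune, endothelial, bone and neural markers was that of Cd68, 0.991 CPM (CPM are reads scaled by the library's total, here before TMM scaling). Myh11, the myosin that defines mature smooth muscle, held between 0.0478 and 0.395 CPM, 27 reads in all. Markers of myoblasts or reserve cells were read as well: the medians were 195 CPM for Mki67, 28.7 CPM for Myf5 and 1.53 CPM for Pax7. None of these was called between the times. In a principal component analysis of the 6 libraries, the first component (41.8% of the variance) set replicate 2 of both times apart from the other 4 libraries. The second component (19.9%) was positive in all 3 libraries of 30 h and negative in all 3 of 24 h. Because same-numbered libraries deviated together, least clearly those numbered 1, a fit with the replicate number as a block was also made. It is given beside each result whose call it changes.

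Between 24 and 30 h under 1% of the measured genes passed the test. Among the genes that rose were Tagln and Cnn1, which encode actin-binding proteins, Col8a2 and Tnc, which encode matrix proteins, the growth factor gene Ccn2 and the lipase gene Mgll. The clock genes Dbp and Nr1d2, the folate enzyme gene Aldh1l2 and the mitotic genes Kif20a, Aspm, Cenpf and Knstrn fell. In all, 93 of 12687 genes (0.733%) were called at an adjusted p under 0.05 (edgeR quasi-likelihood test, Benjamini-Hochberg over all genes tested): 79 were higher (0.623%) and 14 lower (0.110%) at 30 h. All 93 were protein-coding. Their changes were modest: 6 genes rose at least 2-fold and 2 fell at least 2-fold, and with a limit of 1.5-fold the counts were 31 and 6. The median log2 change was 0.50 over the 79 and -0.49 over the 14, while 6339 of all 12687 genes lay above 0. In each of the 93 genes the 3 libraries of 30 h lay wholly on one side of the 3 of 24 h, and all 3 same-numbered pairs moved one way. Such a separation was seen upward in 773 (6.09%) and downward in 619 (4.88%) of all genes tested. The fit with the replicate block called 416 of the 12687 genes, 305 higher and 111 lower, and kept all 93. Counts of list members given below with the block stand beside these 305 and 111, not beside the 79 and 14. A fit on the 6 libraries alone called 9. Leaving out replicates 1, 2 or 3 of 30 h gave 62, 63 and 45 calls, and replicates 1, 2 or 3 of 24 h 58, 46 and 51. Without the 9 libraries numbered 1, 2 or 3 the counts were 12, 24 and 13. The calls of 36 genes, 30 higher and 6 lower, held whichever of the 6 libraries was left out. For the other 57 the libraries whose loss ended the call are named with the largest adjusted p of those 6 fits.

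**Figure D1:**
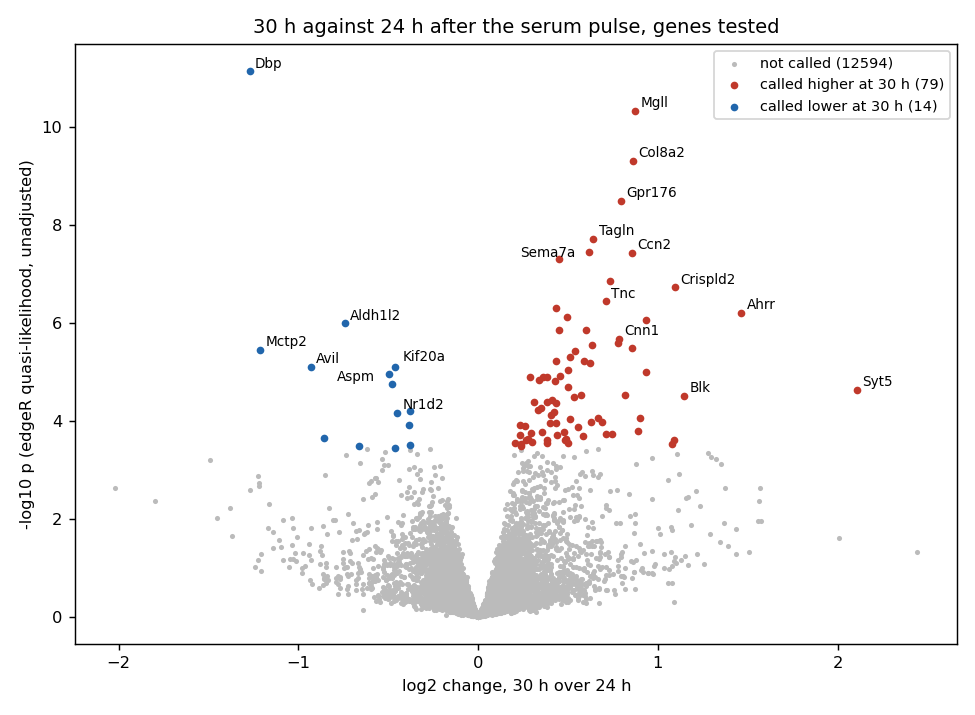
Each point is 1 of the 12687 genes tested, with its log2 change at 30 h over 24 h on the x axis and -log10 of the unadjusted p on the y axis. The 79 genes called higher (red) outnumber the 14 called lower (blue), of which Dbp has the smallest p.

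The core clock list held 19 tested genes, of which 2 fell and 0 rose; 4 of 19 changes lay above 0 and their median was -0.10. Dbp, the D-box-binding activator whose transcription is a direct output of BMAL1 and CLOCK, had the smallest p of any gene called in the comparison (chr7:45705088-45710203, plus strand, in GRCm38). It measured 6.37, 6.44 and 5.76 CPM at 30 h, against 14.0, 15.8 and 15.1 CPM at 24 h. Every library of 30 h was below every library of 24 h, and the level was 0.41 times that of 24 h (log2 change -1.27 ± 0.10, adjusted p = 9.42e-08). Nr1d2, which encodes the repressor REV-ERBβ, measured 68.2, 62.3 and 58.5 CPM at 30 h, against 95.9, 79.0 and 83.4 CPM at 24 h. All 3 libraries of 30 h were below all 3 of 24 h (log2 change -0.45 ± 0.09, adjusted p = 0.0158). The call of Nr1d2 was lost without replicates 2 or 3 of 30 h or replicates 1 or 3 of 24 h (largest adjusted p = 0.153).

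Per2, a period repressor, measured 9.83, 9.52 and 10.9 CPM at 30 h, against 15.5, 13.2 and 16.3 CPM at 24 h. Its groups did not overlap either, but the gene was not called (log2 change -0.58 ± 0.16, adjusted p = 0.116; with the replicate block, adjusted p = 0.00208). Its paralog Per3 averaged 17.5 ± 3.09 CPM at 30 h and 23.8 ± 1.89 CPM at 24 h (log2 change -0.45 ± 0.19, adjusted p = 0.541; with the block 0.00379). Of the other genes of the clock, Tef, the second PAR bZIP factor, had a change of -0.27 ± 0.09 (adjusted p = 0.241; with the block 0.00558). Bhlhe41, the DEC2 repressor, had one of -0.28 ± 0.10 (adjusted p = 0.362; with the block 0.0088). With the block, then, 6 of the 19 genes were called lower in place of 2. The activators were not called: Arntl, which encodes BMAL1, measured 39.2, 44.5 and 39.3 CPM at 30 h, against 34.8, 39.0 and 36.3 CPM at 24 h, without overlap, and Clock had a change of 0.07 ± 0.09. Both cryptochrome genes overlapped between the times, with changes of -0.02 ± 0.08 for Cry1 and -0.04 ± 0.18 for Cry2, as did Per1 (-0.02 ± 0.29) and Nr1d1 (-0.04 ± 0.41). In Cry2, Per1 and Nr1d1 replicate 2 lay lowest at each time. The D-box repressor Nfil3, which acts against DBP, averaged 48.1 ± 1.83 CPM at 30 h and 42.9 ± 2.63 CPM at 24 h. For Nfil3 the log2 change was 0.17 ± 0.09 (adjusted p = 0.75). Rora, an activator of Arntl, had a change of -0.10 ± 0.20. Npas2, Hlf, Bhlhe40 and Ciart had changes of -0.41, -1.10, 0.00 and -0.40 on the log2 scale, and none was called with or without the block; Npas2 and Hlf each averaged under 1 CPM at both times.

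**Figure D2:**
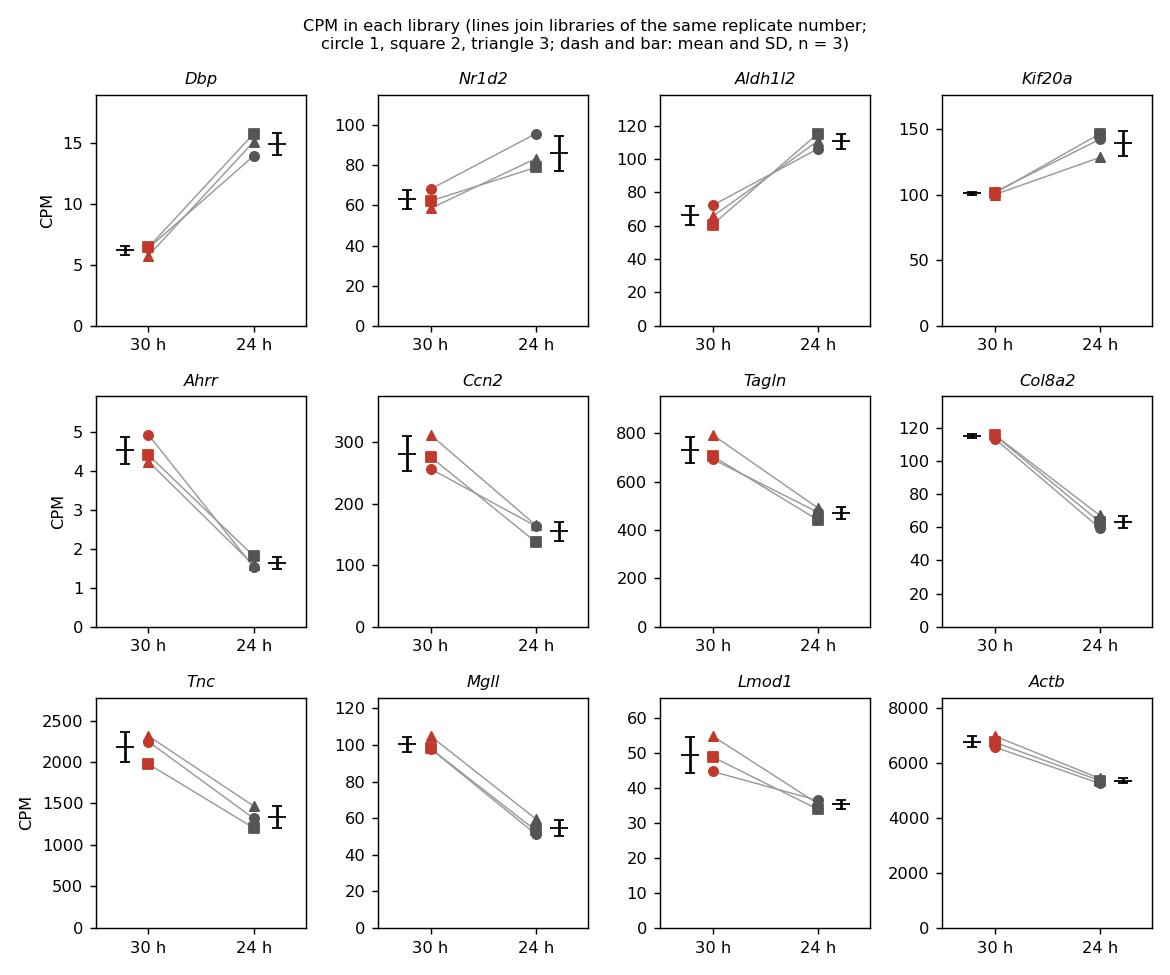
Each panel gives the CPM of 1 gene in the 3 libraries of 30 h (red) and the 3 of 24 h (grey), joined by replicate number, with the mean and SD (n = 3) at the side; every y axis starts at 0. In all 12 panels the 2 groups do not overlap, and Dbp, Nr1d2, Aldh1l2 and Kif20a are lower at 30 h while the other 8 are higher.

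Ahrr, which encodes the repressor of the aryl hydrocarbon receptor and is itself a target of that receptor, had the largest rise among called genes averaging at least 1 CPM over the 6 libraries (chr13:74211118-74292331, minus strand). It measured 4.91, 4.40 and 4.23 CPM at 30 h, against 1.53, 1.81 and 1.58 CPM at 24 h, a 2.76-fold rise (log2 change 1.46 ± 0.21, adjusted p = 0.000613). The lowest library of 30 h was far above the highest of 24 h. Of the 6 tested genes of the receptor's pathway it was the 1 called, and 3 of the 6 changes lay above 0 (median 0.02; with the block 1 rose and 1 fell). Cyp1b1, a monooxygenase induced through the receptor, averaged 85.9 ± 4.81 CPM at 30 h and 77.5 ± 2.48 CPM at 24 h. For Cyp1b1 the log2 change was 0.15 ± 0.08 (adjusted p = 0.787). Arnt, the receptor's partner, had a change of -0.04 ± 0.13. Aldh3a1, an aldehyde dehydrogenase also known as a target, measured 58.3, 52.6 and 35.6 CPM at 30 h, against 59.9, 99.5 and 72.1 CPM at 24 h. Its groups did not overlap, without a call (log2 change -0.66 ± 0.17, adjusted p = 0.0769; with the block 0.00242).

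The promoter of Ahrr is shown because the receptor complex binds the core GCGTG, and this window holds 3 copies of it. Bases -127 to -3 from the RefSeq start are given 5′ to 3′ on the gene's strand (GRCm38.p6, chr13:74292334-74292458, minus strand), with the cores in capitals at -107, -82 and -27.
Ahrr: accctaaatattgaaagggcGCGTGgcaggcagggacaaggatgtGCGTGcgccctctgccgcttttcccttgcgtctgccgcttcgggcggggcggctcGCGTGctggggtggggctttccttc
So short a core is common: 51.9% of the 9972 promoters of tested genes in the RefSeq table, each 250 bases before to 50 after the start, held at least 1 match on either strand, and so did 27 of the 55 promoters found for the 79 genes that rose (49.1%). A match of letters is a description of this window, and this motif was added after the gene's values were seen.

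Smooth muscle markers had the largest share of calls among the lists, which were chosen with earlier results of these data known. Of 9 tested members 6 rose, beside 0.623% of all genes, 0 fell and 8 had a change above 0. Their median log2 change was 0.49 (with the block 7 rose). A fit on the 6 libraries alone called 2 of the 9 higher, and a fit with no filter called 4. Without the libraries numbered 1, 2 or 3 the counts were 1, 3 and 1. Of the markers of fibroblasts and smooth muscle used for the check of cell types, Tagln was called, Acta2 and Col1a1 were not, and Myh11 was near 0 in all 6 libraries; their part in these rises was not tested. Tagln (transgelin, an actin-binding protein of smooth muscle and immature muscle; chr9:45929619-45936058, minus strand) measured 693, 706 and 793 CPM at 30 h, against 473, 441 and 491 CPM at 24 h. Every library of 30 h was above every library of 24 h (log2 change 0.64 ± 0.08, adjusted p = 4.99e-05). Actg2, the enteric smooth muscle actin, measured 312, 337 and 336 CPM at 30 h, against 227, 218 and 204 CPM at 24 h. For Actg2 the log2 change was 0.60 ± 0.09 (adjusted p = 0.000998). Cnn1, calponin, which binds actin and slows the myosin ATPase, had the largest change of the list and measured 39.2, 46.0 and 47.4 CPM at 30 h, against 27.2, 27.3 and 22.4 CPM at 24 h. For Cnn1 the log2 change was 0.79 ± 0.12 (adjusted p = 0.00142). These 3 genes kept their calls without any 1 library.

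Lmod1, a leiomodin that nucleates actin filaments, averaged 49.5 ± 5.10 CPM at 30 h and 35.3 ± 1.29 CPM at 24 h. For Lmod1 the log2 change was 0.49 ± 0.11 (adjusted p = 0.0382). Myl9, the regulatory light chain of smooth and non-muscle myosin, averaged 418 ± 41.6 CPM at 30 h and 295 ± 14.0 CPM at 24 h (log2 change 0.50 ± 0.12, adjusted p = 0.0414). The adhesion molecule gene Mcam averaged 14.1 ± 1.95 CPM at 30 h and 10.4 ± 0.474 CPM at 24 h. For Mcam the log2 change was 0.43 ± 0.09 (adjusted p = 0.011). The call of Lmod1 was lost without any 1 library other than replicate 1 of 30 h (largest adjusted p = 0.27). The call of Myl9 was lost without any 1 library other than replicate 1 of 30 h (largest adjusted p = 0.177). The call of Mcam was lost without replicates 2 or 3 of 30 h or replicates 2 or 3 of 24 h (largest adjusted p = 0.158). Acta2, smooth muscle alpha-actin, measured 3700.5, 4307 and 3839 CPM at 30 h, against 2854, 3279 and 2816 CPM at 24 h, again without overlap, but was not called (log2 change 0.40 ± 0.11, adjusted p = 0.127; with the block 8.30e-05). Outside that list, 4 called genes of actin or its binding proteins and motors are given here, chosen after their values were seen. Actb, the cytoplasmic beta-actin often taken as a constant control, measured 6582, 6759.6 and 6986 CPM at 30 h, against 5260.5, 5363 and 5440.3 CPM at 24 h. For Actb the log2 change was 0.34 ± 0.06 (adjusted p = 0.00499). Reads of the near-identical actin genes can be split by the counting in ways the sources used here do not give, so the share of each actin is uncertain. Cnn2, a calponin of non-muscle cells, rose by 0.31 ± 0.06 on the log2 scale (adjusted p = 0.0109). Wdr1, which speeds filament disassembly with cofilin, rose by 0.35 ± 0.07 (adjusted p = 0.0139) and the class I myosin Myo1c by 0.24 ± 0.06 (adjusted p = 0.0435). Actb kept its call without any 1 library. The call of Cnn2 was lost without replicate 3 of 30 h or replicates 1 or 2 of 24 h (largest adjusted p = 0.111). The call of Wdr1 was lost without replicates 1 or 2 of 30 h or replicates 1 or 3 of 24 h (largest adjusted p = 0.0968). The call of Myo1c was lost without any 1 of the 6 libraries (largest adjusted p = 0.243). Against these, the skeletal actin gene Acta1 had a log2 change of -0.02 (adjusted p = 0.999) and Avil, which encodes an actin-regulating protein, fell (log2 change -0.93 ± 0.16).

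Serum response factor binds the CArG box, and 2 of the 55 promoters of genes that rose held a perfect one, those of Cnn2 and Myl9 (3.64%), against 1.32% of all 9972. Both are shown 5′ to 3′ on the plus strand of GRCm38.p6 with 30 bases to each side and the box in capitals. The box starts at -56 in Cnn2 (chr10:79988514-79988583) and at -161 in Myl9 (chr2:156775273-156775342).
Cnn2: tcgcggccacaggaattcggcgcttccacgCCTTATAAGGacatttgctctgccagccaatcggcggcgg
Myl9: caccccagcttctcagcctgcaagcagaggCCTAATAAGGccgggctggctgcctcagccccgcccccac
The CArG box was added after the values were seen, and a count of 2 promoters allows no more than this description.

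The YAP and TEAD list, 12 tested genes chosen as known targets of the pathway, had 3 genes that rose and 0 that fell, and all 12 changes lay above 0 with a median of 0.14. The other 9 genes were not called, with changes of at most 0.19, and Ankrd1, a target much used as a readout of YAP, had a change of 0.01 ± 0.10. Ccn2, a matricellular growth factor also called CTGF (chr10:24595442-24598683, plus strand), measured 257, 276 and 312 CPM at 30 h, against 164, 138 and 165 CPM at 24 h. For Ccn2 the log2 change was 0.86 ± 0.10 (adjusted p = 6.75e-05). All libraries of 30 h were above all of 24 h, and the fold was 1.81. Its relative Ccn1 (CYR61) measured 204, 219.7 and 225 CPM at 30 h, against 159, 144 and 153 CPM at 24 h. For Ccn1 the log2 change was 0.51 ± 0.09 (adjusted p = 0.00251). Crim1, a membrane protein that holds BMP ligands at the cell surface, measured 64.0, 60.2 and 59.9 CPM at 30 h, against 47.0, 41.4 and 46.2 CPM at 24 h. For Crim1 the log2 change was 0.45 ± 0.07 (adjusted p = 0.000998). Both were higher in every library of 30 h, and all 3 calls held without any 1 library. Ajuba, a LIM protein of the same pathway, was next by p and overlapped between the times (log2 change 0.16 ± 0.07, adjusted p = 0.486).

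The promoters of Ccn1, Crim1 and Lmod1 are shown because each gene rose and its promoter holds the TEAD core GGAATG or its reverse complement. Each window is 30 bases, the core in capitals, and 30 bases, 5′ to 3′ on the gene's strand in GRCm38.p6. It covers chr3:145650053-145650118 on the minus strand for Ccn1, chr17:78200139-78200204 on the plus strand for Crim1 and chr1:135324653-135324718 on the plus strand for Lmod1, with the core at -103, -79 and -130 from the start.
Ccn1: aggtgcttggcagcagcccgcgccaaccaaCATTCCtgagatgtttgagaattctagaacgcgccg
Crim1: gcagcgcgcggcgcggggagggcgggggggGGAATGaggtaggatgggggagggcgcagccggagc
Lmod1: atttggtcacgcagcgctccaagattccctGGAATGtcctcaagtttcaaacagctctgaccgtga
The core was found in 8 of the 10 promoters of the list that the table holds (80.0%) and in 12.0% of the 9972, but in 4 of 55 promoters of genes that rose (7.27%), the 3 shown and that of Kcnk2, a potassium channel, and in 2 of 11 of genes that fell (18.2%). Promoters of genes of the list that were not called held it too, among them those of Ajuba and Ankrd1. The E-box CACGTG was found in 5 of 55 (9.09%) and in 10.1% of all, the part of the hypoxia element GACGTG in 4 of 55 (7.27%) and 9.35% of all, the AP-1 site TGACTCA in 2 of 55 (3.64%) and 3.66% of all, and the sterol element TCACNCCAC in 1 of 55 (1.82%) and 1.07% of all. No promoter of a gene that rose held the D-box TTATGTAA or the amino acid response element TGATGCAA. Of 11 promoters of genes that fell, 2 held the amino acid response element, those of Avil and Mctp2, against 0.612% of all. Motifs were searched on both strands; the E-box and the hypoxia part differ in 1 letter and cannot match the same bases, but either can overlap the dioxin core GCGTG at its end.

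Of 35 tested genes of the collagen and matrix list 3 rose, 0 fell and 34 had a change above 0; the median was 0.24, beside a median within 0.01 of 0 for all genes. With the replicate block 12 rose. Col8a2, a short-chain network collagen, measured 114, 116 and 116 CPM at 30 h, against 59.5, 63.2 and 67.2 CPM at 24 h. For Col8a2 the log2 change was 0.86 ± 0.08 (adjusted p = 2.14e-06). Its libraries of 30 h lay within a few CPM of each other, all far above 24 h. Tnc, the adhesion-modulating glycoprotein tenascin-C, measured 2246, 1975 and 2313 CPM at 30 h, against 1321, 1206 and 1469 CPM at 24 h (log2 change 0.71 ± 0.10, adjusted p = 0.000423). Its smallest value at 30 h was above its largest at 24 h. Col8a1, the partner chain of Col8a2, rose less, 515 ± 8.84 CPM at 30 h and 426 ± 14.4 CPM at 24 h. For Col8a1 the log2 change was 0.27 ± 0.06 (adjusted p = 0.038), a call lost without any 1 of the 6 libraries (largest adjusted p = 0.252). Fmod, the collagen-binding proteoglycan fibromodulin, was next (3.80, 2.96 and 4.43 CPM at 30 h and 1.98, 1.35 and 2.39 CPM at 24 h; log2 change 0.97 ± 0.24, adjusted p = 0.0651, with the block 0.00229). Col1a1, the main fibrillar chain, had a change of 0.48 ± 0.26, and its libraries overlapped (adjusted p = 0.752).

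Further genes of the matrix and its remodelling were called outside that list. Plaur, the receptor that gathers urokinase at the cell surface, rose (log2 change 0.55 ± 0.12, adjusted p = 0.0262). Has2, which makes hyaluronan, measured 126, 120.0 and 118 CPM at 30 h, against 91.1, 92.8 and 86.5 CPM at 24 h. For Has2 the log2 change was 0.43 ± 0.08 (adjusted p = 0.00511). Chst2, a sulfotransferase of glycans, measured 106, 105 and 109 CPM at 30 h, against 79.6, 77.1 and 79.6 CPM at 24 h. For Chst2 the log2 change was 0.43 ± 0.06 (adjusted p = 0.000536). Adam12, the metalloprotease of regenerating muscle, averaged 42.8 ± 5.96 CPM at 30 h and 24.3 ± 3.80 CPM at 24 h (log2 change 0.82 ± 0.16, adjusted p = 0.00882). The fibrillar collagen gene Col27a1 averaged 6.87 ± 1.30 CPM at 30 h and 3.26 ± 0.447 CPM at 24 h. For Col27a1 the log2 change was 1.08 ± 0.25 (adjusted p = 0.0428). Crispld2, a secreted glycan-binding protein, stood low at both times but rose 2.14-fold, 6.03, 6.11 and 6.15 CPM at 30 h and 2.81, 2.43 and 3.30 CPM at 24 h. For Crispld2 the log2 change was 1.10 ± 0.15 (adjusted p = 0.000243). Adamts15, a protease that cleaves versican, fell instead, with 4.67, 4.86 and 3.54 CPM at 30 h and 6.73, 6.31 and 7.56 CPM at 24 h. For Adamts15 the log2 change was -0.66 ± 0.16 (adjusted p = 0.0462). Chst2 and Crispld2 kept their calls without any 1 library. The call of Plaur was lost without any 1 library other than replicate 1 of 30 h (largest adjusted p = 0.122). The call of Has2 was lost without replicate 3 of 24 h (adjusted p = 0.0529). The call of Adam12 was lost without replicates 1 or 3 of 30 h or replicate 2 of 24 h (largest adjusted p = 0.11). The call of Col27a1 was lost without any 1 of the 6 libraries (largest adjusted p = 0.288). The call of Adamts15 was lost without any 1 of the 6 libraries (largest adjusted p = 0.336).

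Signals and receptors made up another share of the calls. In the TGF beta and BMP list 3 of 19 tested genes rose, 0 fell and 15 had a change above 0 (median 0.09; with the block 4 rose). Grem1 and Inhbb were among the genes that rose. Grem1, a secreted BMP antagonist, averaged 98.5 ± 1.41 CPM at 30 h and 75.4 ± 7.26 CPM at 24 h. For Grem1 the log2 change was 0.39 ± 0.08 (adjusted p = 0.0109). Inhbb, the beta B chain of activin, averaged 259 ± 9.52 CPM at 30 h and 216 ± 10.3 CPM at 24 h. For Inhbb the log2 change was 0.26 ± 0.06 (adjusted p = 0.0247). Inhba, the beta A chain, was not called (log2 change 0.52 ± 0.15, adjusted p = 0.154; with the block 0.00558). The call of Grem1 was lost without replicates 1 or 3 of 30 h or replicates 2 or 3 of 24 h (largest adjusted p = 0.157). The call of Inhbb was lost without replicates 2 or 3 of 30 h or replicates 1 or 2 of 24 h (largest adjusted p = 0.179).

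In the list of ERK feedback genes and EGF ligands 1 of 14 rose, 0 fell and 12 lay above 0 (median 0.20; with the block 3 rose). That gene was Ereg, the EGF receptor ligand epiregulin, which measured 20.3, 21.9 and 21.3 CPM at 30 h, against 15.4, 15.5 and 13.7 CPM at 24 h. For Ereg the log2 change was 0.51 ± 0.11 (adjusted p = 0.0198), a call lost without any 1 of the 6 libraries (largest adjusted p = 0.145). Pdgfa, a mitogen for mesenchymal cells, measured 78.7, 96.9 and 106 CPM at 30 h, against 57.8, 62.7 and 66.6 CPM at 24 h (log2 change 0.59 ± 0.10, adjusted p = 0.0029), with replicate 1 lowest at both times. Hgf, the scatter factor that wakes satellite cells, fell, with 32.7, 28.4 and 28.5 CPM at 30 h and 42.9, 42.8 and 37.7 CPM at 24 h (log2 change -0.46 ± 0.11, adjusted p = 0.0499). This was the weakest of the 93 calls by p, and it was lost without any 1 of the 6 libraries (largest adjusted p = 0.252). In the Wnt list 1 of 19 rose, 0 fell and 14 lay above 0 (median 0.11; with the block 2 rose and 1 fell). It was Nkd2, a feedback inhibitor that binds Dishevelled, with 48.6, 47.4 and 48.1 CPM at 30 h and 31.6, 36.7 and 38.4 CPM at 24 h (log2 change 0.43 ± 0.07, adjusted p = 0.0029). Sema7a, a membrane-anchored semaphorin, measured 145, 151 and 156 CPM at 30 h, against 90.8, 97.4 and 106 CPM at 24 h (log2 change 0.62 ± 0.08, adjusted p = 6.75e-05). Its relative Sema4f rose by 0.62 ± 0.11 (adjusted p = 0.00301).

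Receptors of several kinds rose. Gpr176, an orphan G protein-coupled receptor known from the circadian pacemaker of the brain, measured 39.3, 36.2 and 37.1 CPM at 30 h, against 22.5, 19.5 and 23.0 CPM at 24 h. For Gpr176 the log2 change was 0.79 ± 0.08 (adjusted p = 1.04e-05). All 3 libraries of 30 h lay more than 10 CPM above those of 24 h. F2rl3, the thrombin receptor PAR4, measured 6.28, 5.38 and 6.35 CPM at 30 h, against 3.26, 3.52 and 3.21 CPM at 24 h. For F2rl3 the log2 change was 0.86 ± 0.14 (adjusted p = 0.00187). Ptger1, a receptor of prostaglandin E2, rose by 0.67 ± 0.14 (adjusted p = 0.0197), whereas Ptgfr, the receptor of prostaglandin F2 alpha, fell, with 7.30, 5.71 and 5.41 CPM at 30 h and 11.9, 9.78 and 11.8 CPM at 24 h. For Ptgfr the log2 change was -0.86 ± 0.20 (adjusted p = 0.038). The purine-gated channel P2rx7 rose by 0.38 ± 0.09 (adjusted p = 0.0383) and the natriuretic peptide clearance receptor Npr3 by 0.69 ± 0.15 (adjusted p = 0.0221). The adhesion receptor Adgrf5 rose by 1.09 ± 0.25 (adjusted p = 0.0383) and the guidance receptor Robo2 by 0.48 ± 0.11 (adjusted p = 0.0383). Gpr176 and F2rl3 kept their calls without any 1 library, as did both semaphorin genes, Pdgfa and Nkd2. The call of Ptger1 was lost without replicates 1 or 3 of 30 h or replicates 1 or 2 of 24 h (largest adjusted p = 0.142). The call of Ptgfr was lost without any 1 library other than replicate 1 of 30 h (largest adjusted p = 0.227). The call of P2rx7 was lost without any 1 library other than replicate 2 of 30 h (largest adjusted p = 0.345). The call of Npr3 was lost without replicates 2 or 3 of 30 h or replicates 2 or 3 of 24 h (largest adjusted p = 0.18). The call of Adgrf5 was lost without replicates 2 or 3 of 30 h or replicates 2 or 3 of 24 h (largest adjusted p = 0.254). The call of Robo2 was lost without any 1 of the 6 libraries (largest adjusted p = 0.212). Gas1, a membrane protein of growth-arrested cells and a Hedgehog co-receptor, fell, with 97.5, 106 and 112 CPM at 30 h and 143, 137 and 162 CPM at 24 h. For Gas1 the log2 change was -0.48 ± 0.09 (adjusted p = 0.00582), a call lost without replicate 1 of 30 h or replicate 3 of 24 h (largest adjusted p = 0.0643).

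**Figure D3:**
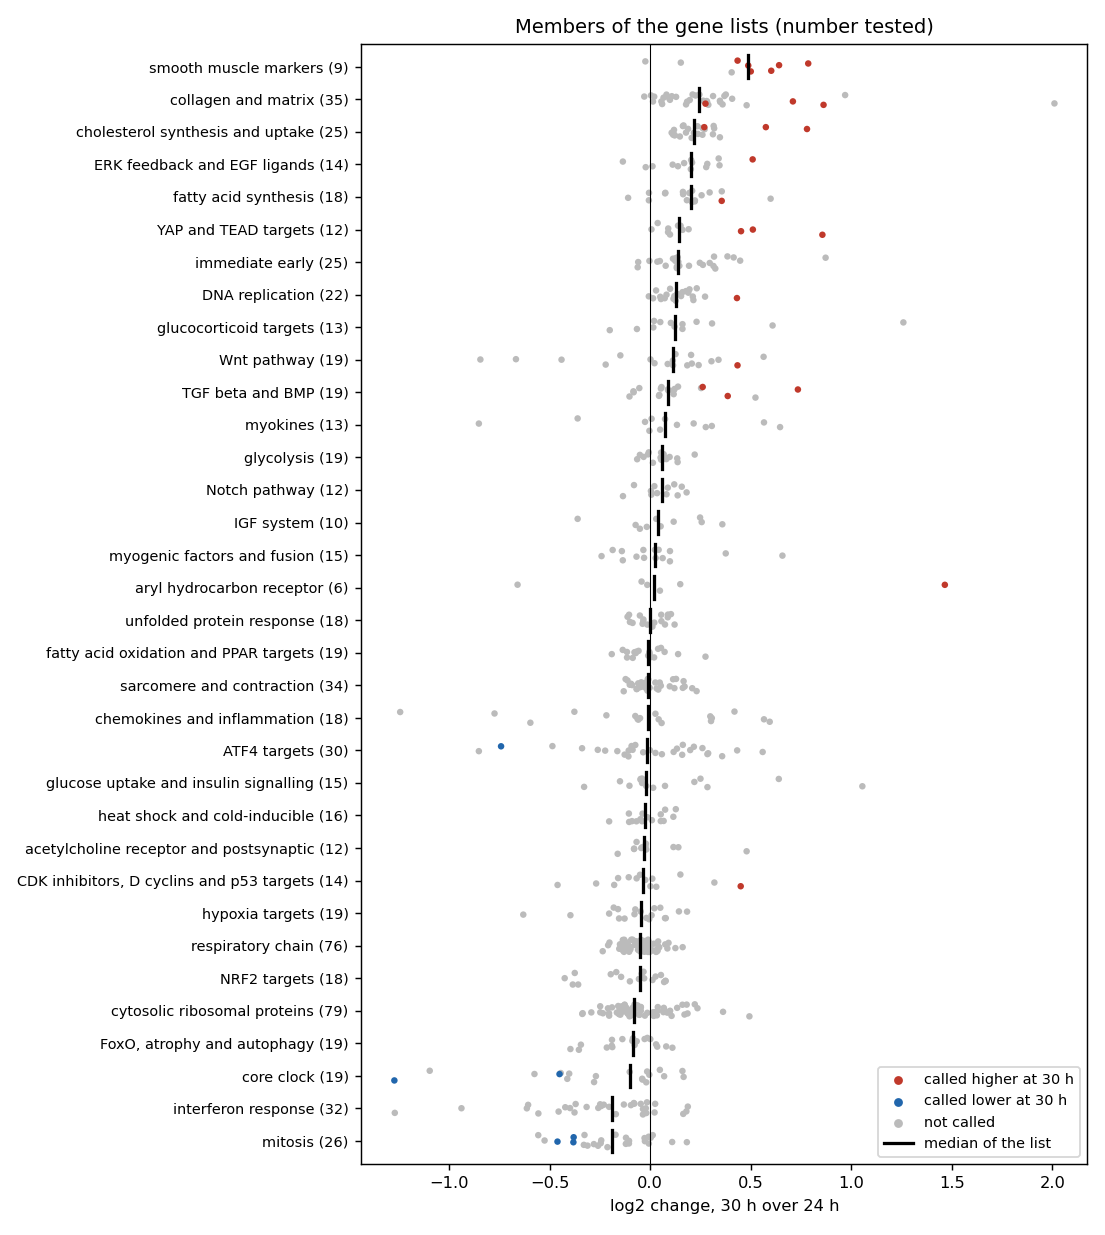
Each point is the log2 change (30 h over 24 h, x axis) of 1 tested member of a gene list, with the lists down the page in order of their median (black bar) and the number tested in brackets. Smooth muscle markers have the highest median (0.49) and 6 of 9 members called higher, and mitosis genes have the lowest (-0.19) with 3 of 26 called lower.

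Lipid genes were among those that rose. Mgll, monoglyceride lipase, which ends endocannabinoid signals and frees fatty acids (chr6:88724412-88828360, plus strand), had the second smallest p of the comparison and measured 97.9, 98.0 and 105 CPM at 30 h, against 51.2, 53.2 and 59.6 CPM at 24 h. For Mgll the log2 change was 0.87 ± 0.07 (adjusted p = 2.99e-07). The libraries of 30 h were all above 90 CPM and those of 24 h all below 60 CPM. In the cholesterol synthesis and uptake list all 25 tested genes had a change above 0 (median 0.22); 3 rose and 0 fell, and with the replicate block 10 rose. Among the genes that rose, Tm7sf2, a sterol C14 reductase, averaged 16.8 ± 0.838 CPM at 30 h and 11.3 ± 0.867 CPM at 24 h (log2 change 0.57 ± 0.11, adjusted p = 0.00882). The call of Tm7sf2 was lost without replicate 3 of 30 h or replicate 1 of 24 h (largest adjusted p = 0.0775). Nsdhl, which removes the C4 methyl groups of sterols, rose by 0.27 ± 0.06 (adjusted p = 0.0383) with a call lost without any 1 library other than replicate 1 of 24 h (largest adjusted p = 0.229). In the fatty acid synthesis list 1 of 18 rose, 0 fell and 15 lay above 0 (median 0.20; with the block 4 rose). It was Fads2, the delta-6 desaturase, with 148 ± 10.1 CPM at 30 h and 116 ± 2.19 CPM at 24 h. For Fads2 the log2 change was 0.36 ± 0.08 (adjusted p = 0.0313), a call lost without any 1 library other than replicate 2 of 30 h (largest adjusted p = 0.179).

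Most genes of mitosis lay lower at 30 h. Of 26 tested, 3 fell, 0 rose and 4 had a change above 0, with a median of -0.19; with the replicate block 8 fell. Kif20a, a kinesin of the dividing cell's midzone, measured 102, 101 and 100.1 CPM at 30 h, against 142, 147 and 129 CPM at 24 h. For Kif20a the log2 change was -0.46 ± 0.08 (adjusted p = 0.00337). Its 3 libraries of 30 h agreed within 2 CPM, and each was below each library of 24 h. Cenpf, a kinetochore protein, measured 88.4, 84.9 and 90.5 CPM at 30 h, against 120.0, 112 and 111 CPM at 24 h. For Cenpf the log2 change was -0.38 ± 0.08 (adjusted p = 0.015). Knstrn, which helps chromosomes separate, averaged 37.1 ± 1.10 CPM at 30 h and 48.4 ± 3.34 CPM at 24 h. For Knstrn the log2 change was -0.38 ± 0.08 (adjusted p = 0.0242). Aspm, the spindle pole protein of microcephaly, also fell outside the list, with 51.9, 51.2 and 55.5 CPM at 30 h and 74.8, 74.0 and 75.0 CPM at 24 h. For Aspm the log2 change was -0.50 ± 0.09 (adjusted p = 0.00425). Kif20a and Aspm kept their calls without any 1 library. The call of Cenpf was lost without replicates 1 or 2 of 30 h or replicate 1 of 24 h (largest adjusted p = 0.107). The call of Knstrn was lost without any 1 library other than replicate 3 of 24 h (largest adjusted p = 0.133). The centromeric histone gene Cenpa was lower in every library of 30 h but not called (log2 change -0.53 ± 0.14, adjusted p = 0.0822; with the block 0.000715). Some mitotic kinase genes did not share this: Plk1 had a change of 0.00 ± 0.11 and Aurka one of -0.01 ± 0.11, and the proliferation marker Mki67 averaged 187 ± 17.4 CPM at 30 h and 202 ± 15.6 CPM at 24 h. For Mki67 the log2 change was -0.11 ± 0.11 (adjusted p = 0.999). In bulk RNA, fewer cells in division and less RNA per dividing cell cannot be told apart.

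DNA replication genes lay slightly higher: 21 of 22 changes were above 0 (median 0.13), 1 rose and 0 fell (with the block 2 rose). The gene was Tk1, thymidine kinase, with 29.2 ± 0.993 CPM at 30 h and 21.6 ± 1.28 CPM at 24 h. For Tk1 the log2 change was 0.43 ± 0.09 (adjusted p = 0.0225), a call lost without any 1 library other than replicate 1 of 24 h (largest adjusted p = 0.171). Mcm2, of the replicative helicase, had a change of 0.23 ± 0.08 (adjusted p = 0.241; with the block 0.0307). Ccnd1, the cyclin D1 that carries growth signals into the cell cycle, measured 124, 119 and 120.1 CPM at 30 h, against 88.1, 91.3 and 86.0 CPM at 24 h. The groups did not overlap (log2 change 0.45 ± 0.06, adjusted p = 7.92e-05). It was the 1 gene called among 14 tested CDK inhibitors, D cyclins and p53 targets (median -0.04; with the block 2 rose and 1 fell). Cdkn1b, the inhibitor p27, had a change of -0.16 ± 0.05 (adjusted p = 0.239; with the block 0.0439). Rcc1, the exchange factor that charges Ran on chromatin, rose by 0.38 ± 0.07 (adjusted p = 0.00453), a call lost without replicate 2 of 24 h (adjusted p = 0.0533).

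Of the 30 tested ATF4 targets, genes of the amino acid response, 1 fell, 0 rose and 14 lay above 0 (median -0.02). Aldh1l2, the mitochondrial 10-formyltetrahydrofolate dehydrogenase, measured 72.3, 60.7 and 65.6 CPM at 30 h, against 106, 115 and 111 CPM at 24 h (log2 change -0.74 ± 0.11, adjusted p = 0.000828), with the groups far apart. Fgf21, a stress hormone of muscle and liver, averaged 9.22 ± 2.71 CPM at 30 h and 16.6 ± 5.55 CPM at 24 h with overlap between the groups (log2 change -0.85 ± 0.23, adjusted p = 0.105; with the block 0.0105). Atf4 itself had a change of 0.20 ± 0.06 (adjusted p = 0.186; with the block 0.0417). With the block 2 of the 30 rose and 3 fell. Bcat1, the cytosolic enzyme that starts the breakdown of branched-chain amino acids, rose outside the list, with 59.1, 56.3 and 60.5 CPM at 30 h and 41.6, 42.7 and 40.3 CPM at 24 h. For Bcat1 the log2 change was 0.50 ± 0.09 (adjusted p = 0.00379).

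The lists that define the muscle phenotype had no call in the fit on all 27 libraries, with or without the block. These were 34 sarcomere and contraction genes (median -0.01, 14 above 0) and 15 myogenic and fusion genes (median 0.02, 8 above 0). The third list was 12 acetylcholine receptor and postsynaptic genes (median -0.03, 3 above 0). The block fit on the 6 libraries alone called 4 of the 34 higher and 3 of the 15 lower. Over all 12264 genes that fit called 597 higher and 335 lower. Adult fast myosin Myh4 measured 734, 692 and 755 CPM at 30 h, against 641, 673 and 631 CPM at 24 h, without overlap (log2 change 0.17 ± 0.08, adjusted p = 0.661). Myog, the myogenic factor of fusing cells, averaged 580.3 ± 16.1 CPM at 30 h and 639.9 ± 56.4 CPM at 24 h. For Myog the log2 change was -0.14 ± 0.07 (adjusted p = 0.734). None of 76 respiratory chain genes (median -0.05, 14 above 0) or 79 cytosolic ribosomal protein genes (median -0.08, 27 above 0) passed either, although most lay below 0; genes of ribosomal proteins share sequence with many pseudogenes. The median of the 76 was -0.14 in the pair of replicates 1, -0.04 in that of replicates 2 and 0.01 in that of replicates 3, and that of the 79 was -0.14, -0.10 and 0.01. Of 32 interferon response genes 27 lay at or below 0 and 0 were called (median -0.19), but the pairs did not share the shift: their medians were 0.02, -0.38 and -0.32. Ifit1, an interferon-induced RNA sensor, measured 3.70, 2.04 and 1.38 CPM at 30 h, against 6.40, 5.43 and 5.45 CPM at 24 h (log2 change -1.27 ± 0.38, adjusted p = 0.161; with the block 0.0171, the 1 call of the list there). Of 25 immediate early genes, which serum switches on within the first hours, 22 lay above 0 and 0 were called (median 0.14; 1 with the block). Egr2 measured 46.4, 39.1 and 48.0 CPM at 30 h, against 34.1, 28.4 and 37.8 CPM at 24 h (log2 change 0.41 ± 0.14, adjusted p = 0.313; with the block 0.0134), and Fos had a change of 0.14 ± 0.12.

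The other lists of pathways had 0 calls each in the test without the block. With the block 305 of all 12687 genes were called higher and 111 lower, beside 79 and 14 without it. The block meant here is that of the fit on all 27 libraries. With and without it, 0 of 19 genes of fatty acid oxidation (median -0.01), 18 of the unfolded protein response (median -0.002), 16 heat shock and cold-inducible genes (median -0.03), 12 of the Notch pathway (median 0.06) and 15 of glucose uptake and insulin signalling (median -0.02) passed. For the rest the block made calls. All 4 of the NRF2 list of 18 (median -0.05) were lower, among them Gstm1, a glutathione transferase (-0.39 ± 0.11, adjusted p = 0.149, with the block 0.0139) and Hmox1, heme oxygenase (-0.36 ± 0.11, adjusted p = 0.167, with the block 0.0243). The 3 of the 19 FoxO, atrophy and autophagy genes (median -0.09) were lower too, among them the mitophagy receptor gene Bnip3 (-0.40 ± 0.12, adjusted p = 0.202, with the block 0.00347), which was also the 1 call among 19 hypoxia targets (median -0.05). The 4 of 18 chemokines and inflammation genes (median -0.01) were higher, among them Ptgs2, the inducible prostaglandin synthase (0.30 ± 0.09, adjusted p = 0.156, with the block 0.0347). Of 19 glycolysis genes (median 0.06) Pfkp, a phosphofructokinase, was higher (0.22 ± 0.06, adjusted p = 0.0976, with the block 0.00281). Of 10 IGF system genes (median 0.04) 1 was higher and 1 lower, of 13 glucocorticoid targets (median 0.12) 1 and 1, and of 13 myokines (median 0.07) 1 and 2. Fkbp5, a glucocorticoid-induced chaperone partner, had a change of 0.31 ± 0.08 (adjusted p = 0.113, with the block 0.00981). Markers of other cell types had few members with enough reads: 4 of 13 immune and endothelial, 1 of 7 adipocyte, 3 of 9 bone and cartilage and 2 of 8 neural genes were tested. Of these 0 were called, and 1 with the block: Tek, an endothelial receptor, averaged 0.322 ± 0.0269 CPM at 30 h and 0.914 ± 0.254 CPM at 24 h (log2 change -1.49 ± 0.38, adjusted p = 0.0706, with the block 0.0371).

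The 79 genes that rose included others with no list of their own. Among them with the largest folds, Blk, a Src family kinase, measured 2.19, 2.17 and 2.16 CPM at 30 h, against 0.991, 1.14 and 0.813 CPM at 24 h. For Blk the log2 change was 1.15 ± 0.22 (adjusted p = 0.00882). Dock10, a guanine nucleotide exchange factor, measured 2.82, 3.09 and 3.10 CPM at 30 h, against 1.65, 1.66 and 1.39 CPM at 24 h. For Dock10 the log2 change was 0.94 ± 0.17 (adjusted p = 0.00411). Kbtbd12, a kelch repeat protein, averaged 6.00 ± 0.743 CPM at 30 h and 3.13 ± 0.770 CPM at 24 h (log2 change 0.93 ± 0.14, adjusted p = 0.000736), and Glipr1, a CAP family protein, averaged 2.89 ± 0.735 CPM at 30 h and 1.53 ± 0.250 CPM at 24 h (log2 change 0.89 ± 0.20, adjusted p = 0.0306). The call of Blk was lost without replicate 3 of 24 h (adjusted p = 0.07). The call of Glipr1 was lost without replicate 2 of 30 h or replicates 2 or 3 of 24 h (largest adjusted p = 0.182). Syt5, a synaptotagmin, had the largest log2 change of all called genes, 2.11 ± 0.37 (adjusted p = 0.00717), at a mean under 1 CPM. It measured 0.438, 0.591 and 0.640 CPM at 30 h, against 0.165, 0.103 and 0.0957 CPM at 24 h. The call of Syt5 was lost without replicate 3 of 30 h or replicates 2 or 3 of 24 h (largest adjusted p = 0.112). Aqp5, a water channel, measured 176, 200.2 and 177 CPM at 30 h, against 129, 135 and 139 CPM at 24 h. For Aqp5 the log2 change was 0.46 ± 0.08 (adjusted p = 0.00453). Sec61a1, the channel of protein entry into the endoplasmic reticulum, measured 379.7, 355 and 371 CPM at 30 h, against 304, 293 and 309.5 CPM at 24 h. For Sec61a1 the log2 change was 0.29 ± 0.05 (adjusted p = 0.00453), a call lost without replicate 2 of 24 h (adjusted p = 0.0533). Klhdc8a, Lgalsl, Gcnt4 and Syt12 rose by 0.49 ± 0.07, 0.64 ± 0.10, 0.54 ± 0.09 and 0.36 ± 0.07 and, like Aqp5, Dock10 and Kbtbd12, kept their calls without any 1 library. The pseudokinase gene Trib2, the transcription factor gene Foxs1, the exchange factor gene Kalrn, the calcium release channel gene Itpr1, the cGMP-dependent kinase gene Prkg2 and the phosphate carrier gene Slc20a1 rose by 0.50, 0.75, 0.42, 0.33, 0.30 and 0.29 on the log2 scale. The last 14, Kcnk2, Atp10a, Snrnp35, Atp8b1, Fam198b, Cyth3, Gmppb, Unc13c, Msrb3, Strip2, Lims2, Kcnf1, Kctd10 and Slc39a7, had changes between 0.20 (Kctd10) and 0.71 (Unc13c). Of these 20 genes, the calls of Slc20a1, Cyth3, Msrb3, Strip2, Kcnf1, Kctd10 and Slc39a7 were lost without any 1 library. Those of Foxs1 and Fam198b held in the fit without replicate 1 of 30 h alone, those of Kalrn, Atp8b1, Unc13c and Lims2 in that without replicate 2 of 30 h, that of Gmppb in that without replicate 2 of 24 h and that of Prkg2 in that without replicate 1 of 24 h. The call of Trib2 was lost without replicate 3 of 30 h or replicate 2 of 24 h (largest adjusted p = 0.0879). The call of Itpr1 was lost without replicates 1 or 3 of 30 h or replicates 1 or 2 of 24 h (largest adjusted p = 0.121). The call of Kcnk2 was lost without replicates 1 or 3 of 30 h or replicates 2 or 3 of 24 h (largest adjusted p = 0.0726). The call of Atp10a was lost without replicate 3 of 30 h or replicates 1 or 2 of 24 h (largest adjusted p = 0.134). The call of Snrnp35 was lost without replicates 1 or 2 of 30 h or replicates 1 or 3 of 24 h (largest adjusted p = 0.131). The largest adjusted p among the fits of the 20 was 0.265 (Kcnf1). Among the 14 that fell, Mctp2, a membrane protein with C2 domains, measured 1.61, 1.12 and 1.67 CPM at 30 h, against 3.72, 3.73 and 2.92 CPM at 24 h. For Mctp2 the log2 change was -1.21 ± 0.20 (adjusted p = 0.00199). Avil, advillin, an actin-regulating protein of the villin family, measured 4.28, 4.27 and 3.64 CPM at 30 h, against 6.36, 9.78 and 7.18 CPM at 24 h. For Avil the log2 change was -0.93 ± 0.16 (adjusted p = 0.00337). Dglucy, a D-glutamate cyclase, fell to 0.77 times the level at 24 h (log2 change -0.38 ± 0.09, adjusted p = 0.0441), a call lost without any 1 of the 6 libraries (largest adjusted p = 0.18). Mctp2 and Avil kept theirs without any 1 library, as did Aldh1l2 and Bcat1.

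Log2 changes between libraries outside the pair share no reads with it. Their calls do not stand apart in the same way, since 1 fit of all 27 libraries estimated the spread of each gene. With only the libraries of the contrast, 0 genes were called at 54 h against 48 h and 1 at 42 h against 36 h. A day later, at 54 h against 48 h, 28 genes were called (0.221%), 13 higher (0.102%) and 15 lower (0.118%). The count was 181 with the block, and 4, 2 and 6 without the libraries numbered 1, 2 or 3. Of the 79 genes that rose at 30 h, 66 (83.5%) lay higher again at 54 h than at 48 h, as did 6675 of all 12687 genes. The median change of the 79 was 0.16, beside 0.50 in the first day and 0.01 over all genes. Of the 66, 7 were called. These 7 were 8.86% of the 79 and 53.8% of the 13. Of the 14 that fell, 12 (85.7%) lay lower again, as did 6012 of all 12687 genes. Called among these were 2, Dbp (-0.96 ± 0.10, adjusted p = 1.29e-05) and Nr1d2 (-0.44 ± 0.09, adjusted p = 0.037). Among the genes that rose, Sema7a changed by 0.61 ± 0.07 on the second day (adjusted p = 0.00015) and Gpr176 by 0.47 ± 0.08 (adjusted p = 0.00955). Ccn2 had a change of 0.43 ± 0.10 without a call (adjusted p = 0.12; with the block 0.0111). Tagln and Cnn1 stood near 0 there, at 0.02 ± 0.07 and 0.06 ± 0.12.

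At 42 h against 36 h, the opposite phase of a daily wave, 73 genes were called (0.575%), 43 higher (0.339%) and 30 lower (0.236%). The count was 294 with the block, and 0, 3 and 17 without the libraries numbered 1, 2 or 3. Of the 79, 68 (86.1%) lay higher, as did 6401 of all 12687 genes, and 16 were called (20.3% of the 79 and 37.2% of the 43). Of the 14, 9 (64.3%) lay lower, as did 6286 of all 12687 genes. Among the 14, 0 were called lower and 2 were called higher. Those 2 were again Dbp (0.67 ± 0.10, adjusted p = 0.000819) and Nr1d2 (0.49 ± 0.09, adjusted p = 0.00955). Ahrr rose in each of the 3 steps that end at 30, 42 and 54 h, by 1.46 ± 0.21, 1.41 ± 0.21 and 1.47 ± 0.20 (adjusted p = 0.000613, 0.000892 and 0.000653). Its mean was 1.64 ± 0.151 CPM (24 h), 4.52 ± 0.356 (30 h), 1.84 ± 0.718 (36 h), 4.83 ± 0.703 (42 h), 2.03 ± 0.337 (48 h), 5.59 ± 0.271 (54 h) and 2.39 ± 0.469 (60 h) (SD, n = 3 each). Every second collection from 30 h on was high and those between were low. From 36 h on Ccn2 also went up and down, with 264 ± 47.4 CPM (36 h), 433 ± 25.1 (42 h), 342 ± 12.9 (48 h) and 460.3 ± 36.0 (54 h). The mean of Ccn2 at 30 h lay within the SD at 36 h, so a fall between these times was not shown. Its change at 42 h against 36 h was 0.72 ± 0.10 (adjusted p = 0.000863).

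**Figure D4:**
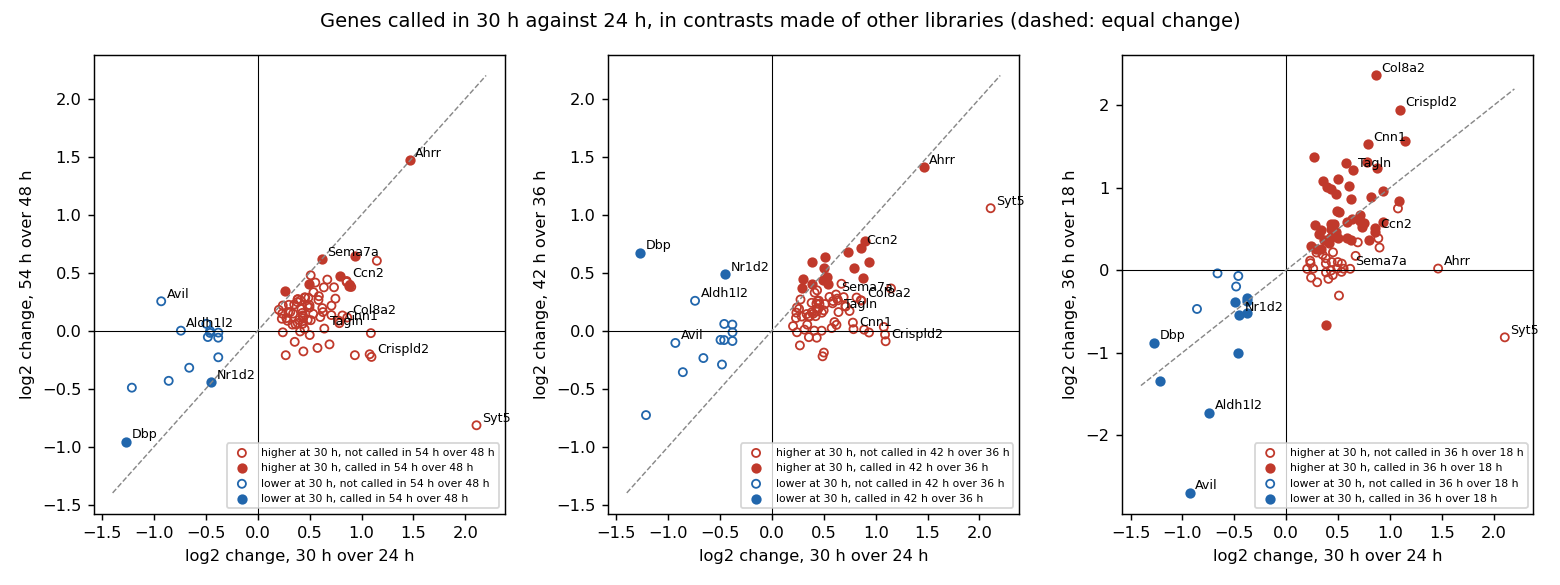
For the 93 genes called in 30 h over 24 h (log2 change on each x axis), the panels give on the y axis their log2 change in 54 h over 48 h, 42 h over 36 h and 36 h over 18 h, all made of other libraries; filled points are also called there and the dashed line marks equal change. Ahrr lies close to the line against 48 h and 36 h and near 0 against 18 h, while Dbp lies below 0 against 48 h and 18 h and above 0 against 36 h.

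Over the longer span around the pair, 36 h against 18 h, 779 genes were called (6.14%), 512 higher (4.04%) and 267 lower (2.10%). The count was 1876 with the block, and 256, 495 and 334 without the libraries numbered 1, 2 or 3. Of the 79 genes, 69 (87.3%) lay higher, as did 5960 of all 12687 genes. Among the 79, 48 were called higher (60.8% of the 79 and 9.38% of the 512), and 1, the BMP antagonist gene Grem1, was called lower. Of the 14 all lay lower, as did 6727 of all 12687 genes, and 10 were called (71.4% of the 14 and 3.75% of the 267). Col8a2 changed by 2.36 ± 0.09 over that span, Tagln by 1.21 ± 0.08, Cnn1 by 1.53 ± 0.13 and Crispld2 by 1.95 ± 0.15, each more than between 24 and 30 h, and Aldh1l2 by -1.73 ± 0.11 and Avil by -2.70 ± 0.17. Ahrr and Sema7a did not differ beyond their error, at 0.02 ± 0.23 and 0.02 ± 0.07. The medians of the lists over that span were 0.86 for smooth muscle markers, 1.11 for cholesterol synthesis and 0.33 for collagen and matrix, and -0.23 for mitosis, beside -0.01 for all genes. At 54 h against 48 h the same medians were 0.06, -0.17, 0.09 and -0.02, and at 42 h against 36 h they were 0.02, -0.13, 0.05 and -0.002, so the median of the cholesterol list was below 0 in both later steps. The median of the DNA replication list was 0.13 at 30 h against 24 h, -0.25 with 3 calls at 54 h against 48 h, -0.09 at 42 h against 36 h and 0.21 at 36 h against 18 h. Col8a2 averaged 167 ± 12.8 CPM (36 h) and 217 ± 3.05 (60 h), above its mean at 30 h. Kif20a stood at 143 ± 19.3 CPM (18 h), 139 ± 9.51 (24 h), 101 ± 0.987 (30 h) and 136 ± 0.879 (36 h).

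**Figure D5:**
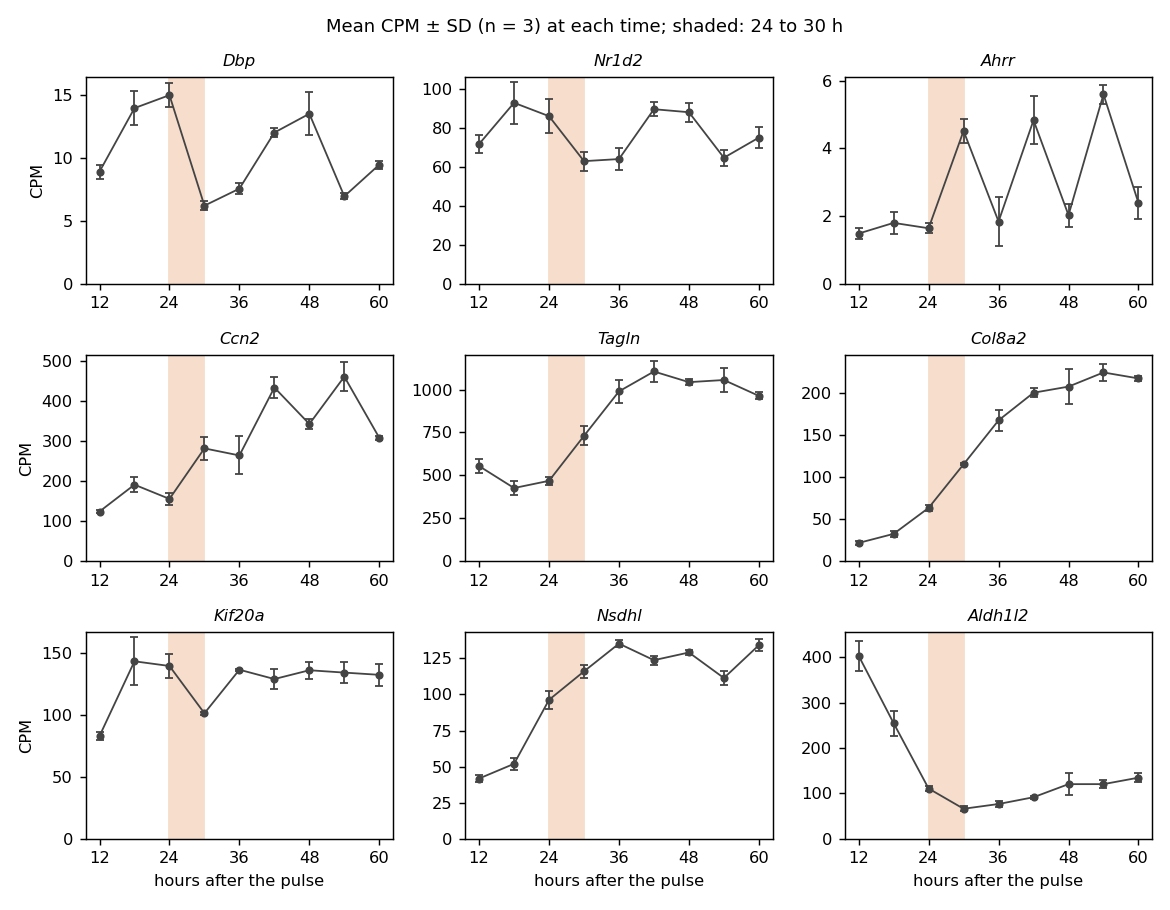
Mean CPM with SD (n = 3 libraries) of 9 genes is plotted against hours after the pulse, 12 to 60 h, with the span from 24 to 30 h shaded; every y axis starts at 0. Dbp drops in the shaded span and again at 54 h, Ahrr is high at 30, 42 and 54 h, the means of Tagln and Col8a2 from 36 h on all lie above those at 30 h, and Aldh1l2 declines up to 30 h.

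The difference between the first and second day, (30 h minus 24 h) minus (54 h minus 48 h), was tested in the same fit and passed for 11 genes (0.0867%). Of these, 6 were called at 30 h: Crispld2, Col8a2, Tagln, Ccnd1, Nsdhl and Syt5. Crispld2 changed by 1.10 ± 0.15 between 24 and 30 h and by -0.23 ± 0.13 between 48 and 54 h (adjusted p of the difference = 0.00623). Col8a2 changed by 0.86 ± 0.08 and 0.11 ± 0.08 (adjusted p = 0.00623), Tagln by 0.64 ± 0.08 and 0.02 ± 0.07 (adjusted p = 0.0159), and Ccnd1 by 0.45 ± 0.06 and 0.01 ± 0.06 (adjusted p = 0.0206). For Dbp, Nr1d2, Ahrr and Ccn2 the difference did not pass (adjusted p = 1.000, 1.000, 1.000 and 0.757), which does not show that the days were alike. The differences were -0.31 ± 0.14, -0.01 ± 0.13, 0.00 ± 0.35 and 0.43 ± 0.15. The count of 11 was 71 with the replicate block, and 0, 0 and 1 without the 9 libraries numbered 1, 2 or 3. Without replicate 1 or 3 of 30 h it was 7 and 4, and without replicate 2 or 3 of 24 h 4 and 5.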

How the data were processed

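Total RNA of C2C12 cultures was sequenced after Ribo-Zero Gold depletion with a stranded TruSeq kit, per the labels' protocols. The table holds raw counts of reads per gene that the authors deposited. The tools were Trim Galore 0.4.0, cutadapt 1.9.1 and featureCounts, with mm10 as the genome, per the submitters' processing notes; the aligner, the annotation and the strand setting of the counting were not given there, so reads of overlapping genes on opposite strands cannot be told apart. The table lists 0 mitochondrial genes, and 3717 genes had no read.

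All 27 libraries (15.2 to 26.6 M counts) entered 1 edgeR 4.0.16 quasi-likelihood fit (R 4.3.3) with the time point as a factor and no covariate, TMM scaling (factors 0.987 to 1.01 in the 6 libraries) and edgeR's expression filter with a minimum count of 10, which left 12687 genes. A gene was called at a Benjamini-Hochberg adjusted p under 0.05. Errors of log2 changes are standard errors, the change divided by the square root of its F; levels are TMM-scaled CPM, reads scaled by the library's total, with the SD over 3 libraries where a mean is given. The common biological coefficient of variation was 11.8%. At this depth the counting error of a gene at 1 CPM is large, and intervals and p-values carry no correction for PCR copies. The scripts were tested on simulated counts drawn independently for each library. These held no effect of the replicate number, so the check does not cover such an effect.

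Libraries of the same replicate number deviated together from their group means, with correlations of 0.169, 0.566 and 0.432 against -0.466 to 0.111 between different numbers. For number 1 the 0.169 stood little above the 0.111 of replicate 1 of 30 h with replicate 3 of 24 h. Deviations from a mean of 3 libraries sum to 0, so positive values within numbers bring negative ones between numbers. The block takes the numbers as pairs from this check and not from a statement in the labels, and what a number shares is not known. Replicates of 1 time differed by more than sampling noise (chi-square per degree of freedom 6.87 to 28.1), and none was merged. The members and gene lists were chosen with earlier results of these data known. Of 20446 genes, 20318 matched GENCODE M21 for type, position and exon length. Named were all core clock genes tested, up to 15 called genes in each direction by size of change (mean of at least 1 CPM, no overlap, same sign in each pair), up to 4 members of each list by p, and 6 genes by the p of the difference between the days. The remaining called genes and Acta1, Acta2, Col1a1, Fos, Mki67, Aurka, Ankrd1 and Plk1 were chosen after their values were seen; values of some genes that these rules would name are not reported here.

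Promoters (250 bases before to 50 after each gene's start, GRCm38.p6) are from RefSeq, where 9972 of the 12687 tested genes, 55 of the 79 called higher and 11 of the 14 called lower had an entry matched by symbol. The CArG box and GCGTG were added to 7 other motifs after seeing the data. Alternatives were the replicate block, fits on the libraries of a contrast alone, DESeq2 1.42.0, limma-voom 3.58.1, other scaling, filters and thresholds, and fits without 1 library or without 1 replicate number.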

Additional observations from a re-analysis of the deposited data

Results flagged for a closer look

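For 11 genes the change of 30 h over 24 h differed from that of 54 h over 48 h by the test of the difference itself (edgeR quasi-likelihood, adjusted over all genes tested). Of these, 10 had the larger value on the first day. Syt5, a synaptotagmin gene under 1 CPM, had a difference of 2.92 ± 0.49 on the log2 scale, Crispld2 one of 1.32 ± 0.20, Col25a1, a membrane collagen, one of 1.28 ± 0.20 and Lrrc26, a potassium channel subunit, one of 1.08 ± 0.20. Scml4, a Polycomb-related gene, differed by 0.77 ± 0.09, with 0.25 ± 0.07 between 24 and 30 h (adjusted p = 0.096; with the block 0.024) and -0.52 ± 0.07 between 48 and 54 h. Col8a2 and Tagln differed by 0.75 ± 0.12 and 0.62 ± 0.11. Acss2, which makes acetyl-CoA from acetate, differed by 0.70 ± 0.12, with 0.36 ± 0.09 between 24 and 30 h (adjusted p = 0.0625; with the block 0.0098) and -0.35 ± 0.09 between 48 and 54 h. Nsdhl and Ccnd1 differed by 0.48 ± 0.09 and 0.44 ± 0.08. Mmd, a macrophage differentiation-associated membrane protein, was the 1 gene with a negative difference, -0.48 ± 0.09, with -0.12 ± 0.06 between 24 and 30 h and 0.35 ± 0.06 between 48 and 54 h. Without the 9 libraries numbered 1, 2 or 3 the test passed 0, 0 and 1 genes. Groups of 3 libraries were too small for a search for single outlying libraries.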

How the results depend on the processing

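Of 4073 values of named genes under the alternatives, 638 lost and 118 gained a call. Another 3311 kept their direction and side of the threshold or, in genes not called, changed direction with a shift under 1 standard error. In 6 values, of genes not called, the direction changed with a larger shift. Among the called genes 0 values reversed. Of the 93 genes, 6 (Ccn2, Tagln, Gpr176, Mgll, Dbp and Col8a2) kept the call under all 18 alternatives and 87 lost it at least once. The cause of these moves was not tested, beyond the fewer libraries or stricter limits that an alternative has by construction.

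The replicate block takes libraries of the same number as paired, which the labels do not state. With it the calls for 30 h against 24 h were 416 (305 higher, 111 lower), for 54 h against 48 h 181, for 42 h against 36 h 294, for 36 h against 18 h 1876 and for the difference between the days 71. Named genes whose call it changed have that p beside them, and it changed no other call of a gene named with an adjusted p. With only the libraries of the contrast they were 9 (7 higher, 2 lower), 0 (edgeR; 356 at an unadjusted p under 0.05, 58 by DESeq2 on all libraries), 1, 266 and 1, and with the block in the same fits 932 (597 higher, 335 lower) for 30 h against 24 h, 40 for 54 h against 48 h, 74 for 42 h against 36 h, 1886 for 36 h against 18 h and 80 for the difference. DESeq2 called 157 (122 higher, 35 lower), 58 for 54 h, 118 for 42 h and 27 for the difference. An adjusted p under 0.01 left 46 (39 higher, 7 lower), 13, 37, 409 and 4, and a fold of at least 1.5 left 37 (31 higher, 6 lower), 9, 29 and 344. With no filter the difference had 7 calls.

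With libraries left out the calls ran between 12 and 63 for 30 h against 24 h (10 to 53 higher, 2 to 11 lower), 2 and 6 for 54 h, 0 and 17 for 42 h, 256 and 495 for 36 h, and 0 and 13 for the difference. The counts of 0 were without all libraries of 1 number in edgeR, with 576 genes at an unadjusted p under 0.05 for 42 h without replicate 1, and 302 and 375 for the difference without replicate 1 and 2. limma-voom, median of ratios scaling and the other filters stayed within 1.5 times of each count for 30 h against 24 h. With 3 libraries a time, changes of genes near 1 CPM are known only coarsely.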
